A study of Mus musculus with 9 samples.

Results

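The 40 genes analysed here belong to the cell division cycle and were followed in RNA-seq of mouse colon, 16 that act in S phase, when DNA is copied, and 24 that act in G2 and mitosis, when chromosomes are separated. They were chosen by name as proliferation genes, by a rule that names the genes and sets no threshold on a measured value, and each of the 40 matched 1 of 54491 genes in the table. C57BL/6 mice, 15 in each of 3 groups, entered the study at 6 weeks of age, and the colon was taken at postnatal day 98. The groups were HFD with P. cinnamivorans (a high-fat diet plus gavage, meaning oral delivery by stomach tube, of the gut bacterium Papillibacter cinnamivorans; replicates 1, 3 and 4), HFD (the high-fat diet; replicates 1, 2 and 4) and control (replicates 1, 2 and 3). Each group had 3 libraries. Gavage was labelled for the bacterium group only, so the bacterium and the gavage cannot be told apart. The labels state neither the stretch of colon nor that each library was a separate mouse, so p-values measure the spread between these libraries, which may be technical.

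The S phase genes fall into origin licensing, replication and nucleotide supply. Cdc6 and Cdt1 load the MCM helicase (Mcm2 to Mcm7) on DNA, Gins2 belongs to the complex that activates it, Pcna is the sliding clamp of the polymerases, and Rrm1, Rrm2 and Tyms make deoxynucleotides. E2f1 and Ccne1 drive entry into S phase, and Hells remodels chromatin. The mitotic genes hold the cyclins and their kinase (Ccna2, Ccnb1, Ccnb2, Cdk1), kinetochore and checkpoint genes (Bub1, Bub1b, Ttk, Cenpa, Cenpe, Cenpf) and mitotic kinases (Aurka, Aurkb, Plk1). They also hold spindle proteins (Kif11, Kif20a, Kif23, Tpx2, Nusap1), chromosome proteins (Mki67, Top2a, Birc5) and the transcription factor Foxm1. The last of them, Cdc20 and Ube2c, act with a ubiquitin ligase, the anaphase-promoting complex. In the colon, dividing cells are found mainly in the lower crypt, and activated lymphocytes in mucosal follicles also divide. Many S phase promoters are bound by E2F factors, whereas many mitotic promoters carry CCAAT boxes, bound by NF-Y, next to a cell cycle genes homology region (CHR), bound by MuvB complexes.

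RefSeq promoter windows (build GRCm38.p6, 250 bases before to 50 after the annotated start) matched 33 of the 40 genes, 14 of S phase and 19 of mitosis. Windows of 2 MCM genes, a B-type cyclin and a pair of mitotic kinases are shown because they carry the motif letters whose frequency differs between the classes. Capitals mark the motifs searched on both strands: E2F (TTTCCCGC, TTTGGCGC, TTTCGCGC or TTTGCCGC), CHR (TTTGAA) and CCAAT. E2F words can overlap one another, as they do upstream of Mcm5 and Mcm6. Different kinds of motif overlapped in 1 member window.
Mcm6 (chr1:128359656-128359955, minus strand): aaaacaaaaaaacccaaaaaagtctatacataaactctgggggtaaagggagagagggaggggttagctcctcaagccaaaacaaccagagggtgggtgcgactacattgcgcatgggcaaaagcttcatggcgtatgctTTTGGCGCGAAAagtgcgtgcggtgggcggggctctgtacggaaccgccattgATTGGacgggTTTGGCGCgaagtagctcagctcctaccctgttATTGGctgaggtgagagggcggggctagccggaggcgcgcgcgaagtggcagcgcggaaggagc
Mcm5 (chr8:75109259-75109558, plus strand): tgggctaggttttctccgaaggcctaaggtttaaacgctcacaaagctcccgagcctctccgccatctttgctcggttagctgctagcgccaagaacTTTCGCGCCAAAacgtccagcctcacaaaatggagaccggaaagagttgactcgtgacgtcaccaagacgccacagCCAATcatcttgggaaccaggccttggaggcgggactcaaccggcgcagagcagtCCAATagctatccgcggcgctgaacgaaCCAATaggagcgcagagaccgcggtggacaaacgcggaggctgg
Ccnb2 (chr9:70421505-70421804, minus strand): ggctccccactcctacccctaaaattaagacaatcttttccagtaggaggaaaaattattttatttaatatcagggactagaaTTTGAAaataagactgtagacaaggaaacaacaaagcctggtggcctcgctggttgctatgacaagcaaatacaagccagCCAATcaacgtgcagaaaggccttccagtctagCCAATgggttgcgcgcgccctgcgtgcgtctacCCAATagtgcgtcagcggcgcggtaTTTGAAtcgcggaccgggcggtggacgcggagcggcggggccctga
Ttk (chr9:83834439-83834738, plus strand): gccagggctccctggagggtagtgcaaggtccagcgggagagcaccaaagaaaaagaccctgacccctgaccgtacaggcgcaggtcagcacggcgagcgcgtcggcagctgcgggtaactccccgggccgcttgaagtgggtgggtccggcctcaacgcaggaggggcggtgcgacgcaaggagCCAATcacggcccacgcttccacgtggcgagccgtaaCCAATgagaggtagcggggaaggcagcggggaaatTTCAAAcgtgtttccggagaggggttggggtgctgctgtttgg
Plk1 (chr7:122159185-122159484, plus strand): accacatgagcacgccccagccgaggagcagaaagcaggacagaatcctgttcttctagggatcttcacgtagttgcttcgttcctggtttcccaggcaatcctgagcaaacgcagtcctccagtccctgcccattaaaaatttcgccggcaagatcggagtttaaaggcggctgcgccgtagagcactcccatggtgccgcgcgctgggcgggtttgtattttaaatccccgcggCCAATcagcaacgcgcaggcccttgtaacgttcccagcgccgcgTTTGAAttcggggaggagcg

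Mcm6 and Mcm5 show E2F words on both strands and no CHR. The other 3 windows show a CHR downstream of CCAAT and no E2F word, and Ccnb2 holds another CHR upstream of its CCAAT boxes. An E2F word was present in 7 of 14 S phase genes, in 1 of 19 mitotic genes (5.26%, Cdk1) and in 2.6% of the 27025 genes with a window. A CHR was present in 1 S phase gene (7.14%, Mcm2), in 14 mitotic genes (73.7%) and in 20.2% of all genes. CCAAT was present in 57.1% of the S phase genes, in 89.5% of the mitotic genes and in 41.1% of all. CHR and CCAAT occurred together in 73.7% of mitotic genes, against 7.14% of S phase genes and 7.97% of all. Among replication genes outside the 40, with 36 matched, 30.6% held an E2F word and 19.4% a CHR. Among the other mitosis genes, with 43 matched, the shares were 11.6% for E2F and 60.5% for CHR. A match describes letters in a window and is not a measured binding site.

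**Figure D1:**
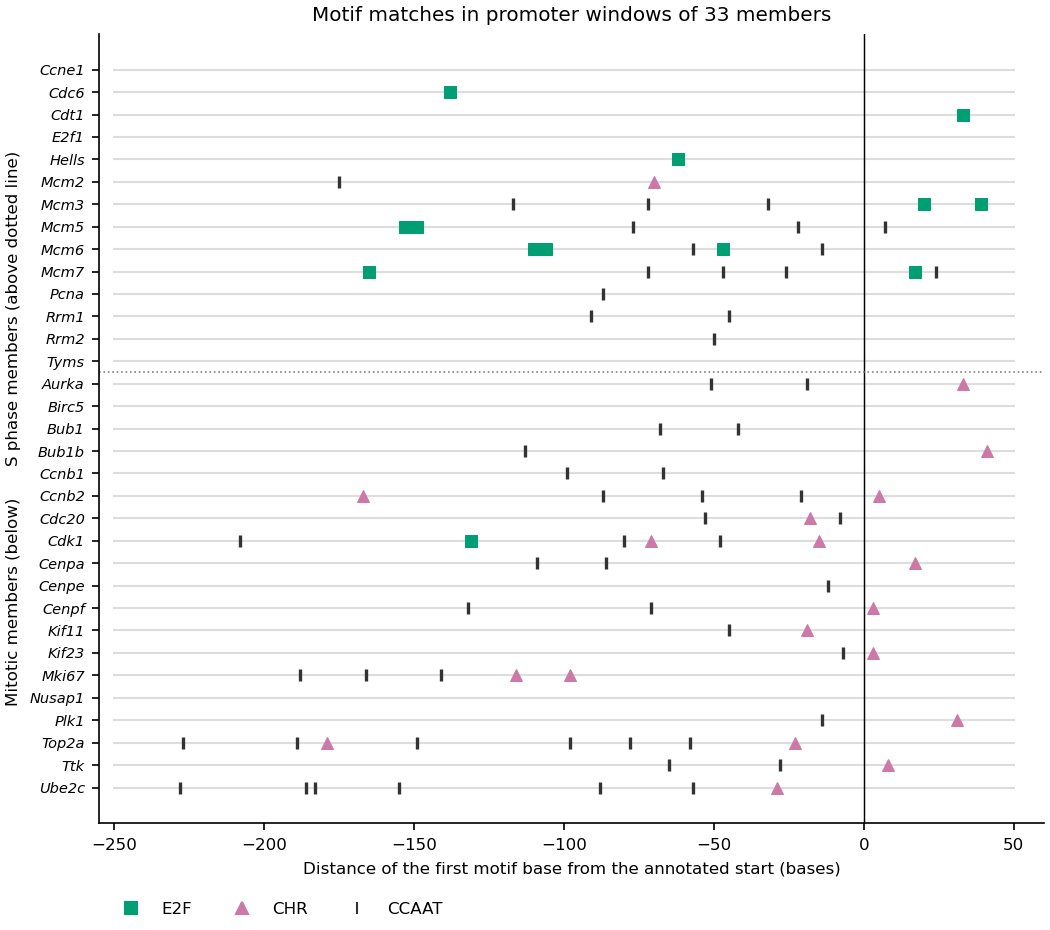
Motif matches in the promoter windows of 33 members, with the distance of the first motif base from the annotated start in bases on the horizontal axis; green squares are E2F words, pink triangles CHR and black ticks CCAAT, and Mcm7 pools 2 annotated starts. E2F words lie mostly in S phase rows, in 7 of 14 genes, and CHR matches mostly in mitotic rows, in 14 of 19.

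The HFD libraries stood apart from the other 6 in most of the measures below, which bears on every comparison with them. Hoxd13, a transcription factor gene of the hindmost gut, was at 0 to 0.138 FPKM in libraries of HFD with P. cinnamivorans, at 86.0, 94.3 and 72.6 FPKM in HFD libraries, and at 0 to 0.45 FPKM in control libraries. Cdx2, an intestinal identity factor, was at 54.3 to 80.3 FPKM with the bacterium, 6.66 to 9.45 FPKM in HFD and 73.2 to 141 FPKM in control. Control libraries also differed among themselves. The 9 posterior Hox genes summed to 71.9, 17.8 and 12.0 FPKM in control replicates 1, 2 and 3. That sum was 281 to 301 FPKM in HFD and 26.6 to 34.3 FPKM with the bacterium. Hoxb2 to Hoxb8 summed to 25.6, 107 and 131 FPKM in control replicates 1, 2 and 3. Their sum was 4.64 to 5.51 FPKM in HFD and 62.8 to 100 FPKM with the bacterium. FPKM is a fragment count divided by transcript length and library size. The summed FPKM of 14 B cell markers was 9.02 to 14.3 with the bacterium, 131 to 162 in HFD libraries and 5.51 to 20.5 in control. Epithelial markers summed to 5720 to 6990 FPKM with the bacterium, 5940 to 6740 FPKM in HFD and 6290 to 11300 FPKM in control. For that sum HFD lay within the range of the bacterium group, and none of the 13 markers was at 0 in all libraries. Mitochondrial transcripts took 21.6% to 34.8% of summed FPKM with the bacterium, 9.69% to 13.5% in HFD and 16.6% to 25.2% in control. Immunoglobulin transcripts took 0.676% to 2.68% with the bacterium, 7.36% to 10.8% in HFD and 0.469% to 1.33% in control. Their part in the differences below was not tested. In such bulk tissue a smaller number of dividing cells and less RNA per dividing cell cannot be told apart.

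All 40 genes were at or above 0.5 FPKM in all 9 libraries and so entered the tests. Per length, mean levels over the 9 libraries ran from 1.45 FPKM for Cdc6 to 42.0 FPKM for Pcna. After Pcna the highest means were those of Plk1 (26.9 FPKM), Ube2c (26.5 FPKM), Ccnb2 (20.6 FPKM) and Mki67 (19.7 FPKM). Low means were those of Gins2 (1.47 FPKM), Kif20a (1.80 FPKM), Cenpf (1.86 FPKM) and Ttk (1.96 FPKM), where a log2 difference on the log2(FPKM + 1) scale understates the change most. Exons of 10 members overlap another gene in the GENCODE M21 annotation, and the sources used here do not say whether strand was used in counting. The largest overlaps, as shares of the exon bases of the member, were those of Gins2 (67.3%, with Gse1), Kif20a (29.3%, with Cdc23) and Ube2c (22.8%, with Tnnc2). Over the libraries Gse1 was at 1.42 to 3.38 FPKM and Cdc23 at 2.12 to 3.44 FPKM, whereas Tnnc2 was only at 0 to 0.2 FPKM. Ccnb1, Ccnb2, Pcna and Tyms have named pseudogenes that could share reads. Values of these genes are therefore uncertain.

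Within a group, most of the 40 genes were highest in the same library, though less so for S phase genes in HFD. Replicate 3 was the highest of its group for 38 of 40 genes in HFD with P. cinnamivorans, including all 16 S phase genes. HFD replicate 4 was the highest of its group for 30 genes, 21 of 24 mitotic and 9 of 16 S phase genes. Control replicate 3 was the highest of its group for 37. The lowest library differed between the classes with the bacterium. It was replicate 1 for 14 of 16 S phase genes and replicate 4 for 18 of 24 mitotic genes. Over all 17907 genes tested, replicate 3 with the bacterium was highest in its group for 37.0%, HFD replicate 4 for 33.9% and control replicate 3 for 38.6%. Replicate 3 of HFD with P. cinnamivorans was also the highest of all 9 libraries for 20 of the 40 genes, against 8.24% of all genes tested. The median coefficient of variation of the S phase genes was 32.5% in HFD with P. cinnamivorans, 7.59% in HFD and 17.7% in control. That of the mitotic genes was 27.8% with the bacterium, 15.9% in HFD and 33.3% in control. For the 11934 tested genes in the same range of mean levels it was 15.8% with the bacterium, 9.81% in HFD and 19.3% in control. Within control, replicate 3 also had the lowest smooth muscle marker sum (1340 FPKM, against 6920 and 1890 in replicates 1 and 2) and the highest epithelial sum (11300 FPKM, against 6290 and 10100). With the bacterium, replicate 3 had the lowest smooth muscle sum (1780 FPKM, against 3220 and 1980), while its epithelial sum lay between the others (6420 FPKM, against 6990 and 5720). Whether these proportions account for the shared highest libraries was not tested.

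**Figure D2:**
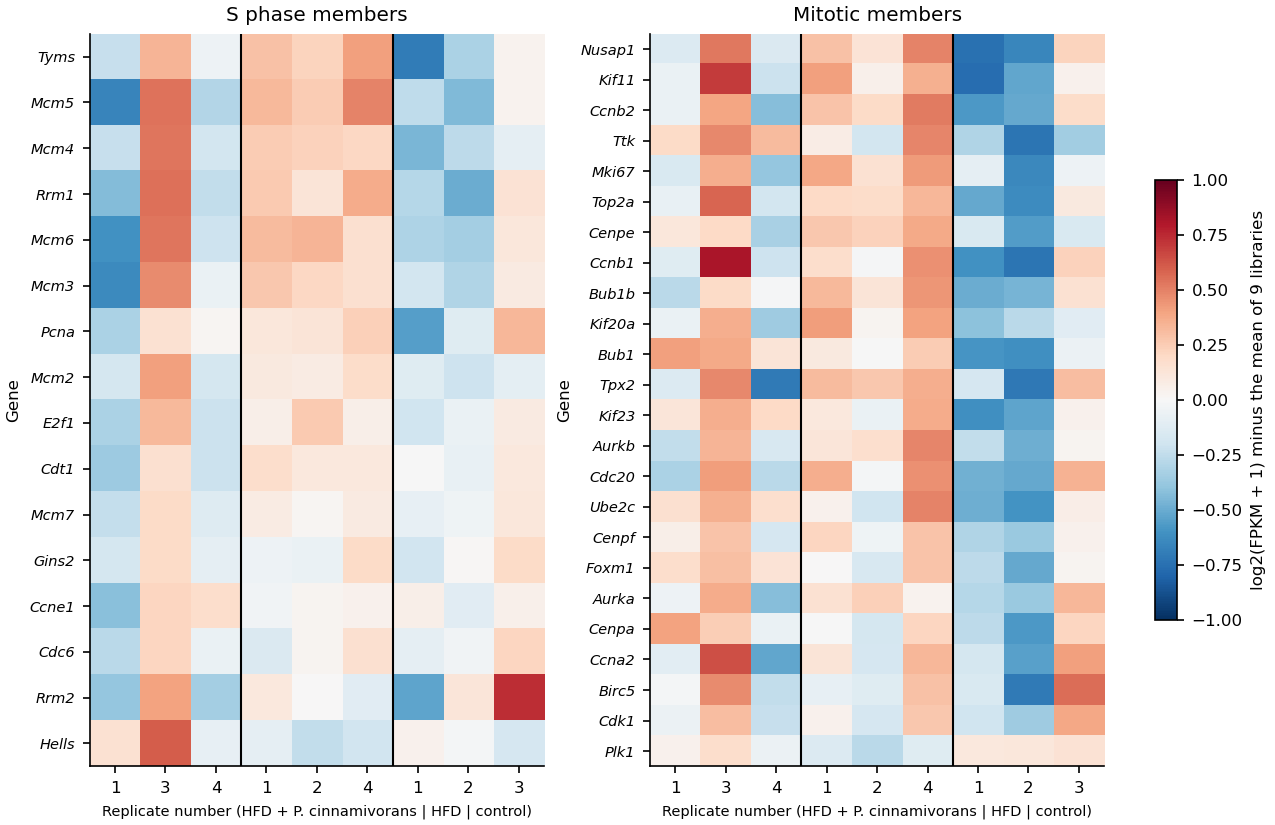
Level of each S phase member (left) and mitotic member (right) in each of 9 libraries, as log2(FPKM + 1) minus the gene's mean over the 9; columns are replicate numbers of HFD with P. cinnamivorans, HFD and control, split by black lines, and genes are ordered by their HFD minus control difference. Replicate 3 of the bacterium group is the highest of its group for 38 of 40 genes, and Plk1, in the bottom row on the right, is blue in the HFD columns.

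The first comparison set HFD against control. Mitotic genes leaned higher in HFD and S phase genes less so: 23 of 24 mitotic and 13 of 16 S phase differences were positive, with median log2 differences of 0.50 and 0.22 on the log2(FPKM + 1) scale, against -0.001 over all genes tested. Without control replicate 1 the S phase median was 0.11. Of the 40 genes only Cenpe passed the test (limma, Benjamini-Hochberg adjusted p below 0.05). That is 1 of 24 mitotic and 0 of 16 S phase genes, where 19.7% of all genes tested were called, 10.6% higher and 9.11% lower. At an unadjusted p below 0.05, 12 mitotic and 2 S phase genes were higher, that is 12 of 24 and 12.5%, against 17.5% of all genes. Plk1 was lower at that p, against 17.2% of all genes, and was also the one member apart with HFD lower, against 20.1%. Groups did not overlap, with HFD higher, for 9 mitotic genes and 6 S phase genes (37.5% of each class), against 21.9% of all genes. The members' share of calls was thus below the background, while the share of mitotic members higher at an unadjusted p was above it. With mitochondrial and immunoglobulin genes removed before scaling, 2 S phase and 13 mitotic genes were called, all higher. Of all 17683 genes in that run 4171 were called, 3154 of them higher, at a median over all genes of 0.21. Without control replicate 3, 1 S phase and 6 mitotic genes were called higher, where 1570 of all 17907 genes were.

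Cenpe (ENSMUSG00000045328), a kinesin that aligns chromosomes at the metaphase plate, was at 4.39, 4.22 and 4.80 FPKM in HFD libraries, against 3.00, 2.02 and 3.00 FPKM in control libraries. All 3 HFD values lay above all control values, and the log2 difference was 0.59 (SE 0.17, limma adjusted p = 0.0443). That call was lost when any of 5 libraries was left out singly from among control replicates 2 and 3 and the 3 HFD libraries, with limma adjusted p between 0.0577 and 0.141, and also without HFD with P. cinnamivorans replicate 1 (adjusted p = 0.0578), which only lends its spread to the fit. With quantile normalization (limma adjusted p = 0.0736) and without a filter on low values (limma adjusted p = 0.0829) Cenpe was not called either. Bub1, a kinase of the spindle checkpoint, was at 3.23, 2.94 and 3.74 FPKM in HFD libraries and at 1.63, 1.59 and 2.81 FPKM in control libraries. The groups did not overlap, by a narrow margin set by control replicate 3 (log2 difference 0.54, SE 0.17, limma adjusted p = 0.0592). Ttk, the Mps1 kinase that starts checkpoint signalling, was at 2.02, 1.52 and 3.02 FPKM in HFD libraries, against 1.31, 0.724 and 1.25 FPKM in control libraries. All HFD values were higher, with a ratio of means of 1.99, but the log2 difference of 0.59 (SE 0.20) missed the threshold (limma adjusted p = 0.065). Bub1b, which holds back the anaphase-promoting complex, was at 5.79, 4.92 and 6.37 FPKM in HFD and at 2.85, 2.93 and 5.04 FPKM in control. Here control replicate 3 lay within the HFD range (log2 difference 0.57, SE 0.20, limma adjusted p = 0.0806).

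Kif20a, a kinesin of the central spindle, was at 2.64, 1.79 and 2.62 FPKM in HFD libraries and at 1.06, 1.26 and 1.52 FPKM in control libraries, without overlap (limma adjusted p = 0.0855). Mki67, the proliferation marker that coats mitotic chromosomes, was at 25.4, 21.4 and 26.2 FPKM in HFD, against 17.9, 11.9 and 18.4 FPKM in control. Its groups were apart, and its log2 difference was 0.59 (SE 0.22, limma adjusted p = 0.0984). Kif11, the motor that separates spindle poles, was at 5.93, 4.39 and 5.69 FPKM in HFD and at 2.08, 2.63 and 4.39 FPKM in control, so that HFD replicate 2 and control replicate 3 nearly met. Ccnb2, a cyclin that activates Cdk1, was at 24.3, 22.8 and 28.8 FPKM in HFD and at 13.0, 13.6 and 22.7 FPKM in control, which again left control replicate 3 beside the lowest HFD library. Ccnb1, the other B-type cyclin measured, was at 7.17, 6.19 and 8.94 FPKM in HFD and at 3.77, 3.38 and 7.50 FPKM in control. Its groups overlapped (log2 difference 0.57, SE 0.33, limma adjusted p = 0.248). Cdk1, the kinase that starts mitosis, was at 7.72, 6.53 and 9.18 FPKM in HFD and at 6.35, 5.62 and 10.1 FPKM in control. Its groups overlapped, with a log2 difference of 0.10 (SE 0.22). Ccna2, the A-type cyclin, gave 0.20 (SE 0.33), also with overlap. The remaining mitotic members were not called either, and their log2 differences lay between 0.10 and 0.70, except for Plk1.

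Plk1 (ENSMUSG00000030867), a kinase needed for mitotic entry and spindle assembly, was the only mitotic member with a negative difference. It was at 24.2, 21.9 and 24.5 FPKM in HFD libraries, against 28.8, 28.9 and 29.6 FPKM in control libraries. The groups did not overlap (log2 difference -0.30, SE 0.11), and the difference missed the threshold (limma adjusted p = 0.0851). With the bacterium, Plk1 was at 27.6, 30.4 and 25.6 FPKM, above every HFD library (log2 difference 0.23, SE 0.11, limma adjusted p = 0.208). Its level was thus lowest in HFD libraries, whereas Ttk and Bub1 were lowest in control. The promoter of Plk1 printed above holds a CHR and a CCAAT like those of Ttk and Ccnb2. Gm44985, an unclassified transcript model on the opposite strand, shares 7.09% of the exon bases of Plk1. It was at 22.7, 25.1 and 24.02 FPKM with the bacterium, 14.4, 19.0 and 14.5 FPKM in HFD libraries and 84.2, 34.3 and 36.0 FPKM in control libraries. Reads from both cannot be told apart where they overlap, if counting ignored strand, and the part of Gm44985 in the Plk1 values was not tested.

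Among S phase genes, the largest differences were those of Tyms and of MCM genes. Tyms, which makes thymidylate, was at 4.85, 4.56 and 5.34 FPKM in HFD libraries, against 1.93, 2.84 and 3.90 FPKM in control libraries. All HFD values were above control (log2 difference 0.63, SE 0.21, limma adjusted p = 0.0625). Mcm4 was at 8.54, 8.44 and 8.24 FPKM in HFD and at 4.85, 5.68 and 6.55 FPKM in control, again apart (limma adjusted p = 0.117). Mcm5 was at 7.53, 7.13 and 8.62 FPKM in HFD and at 4.73, 4.03 and 6.00 FPKM in control, apart as well (limma adjusted p = 0.176). Mcm2, Mcm3 and Mcm6 were also apart, whereas Mcm7 overlapped with a log2 difference of 0.07 (SE 0.13). Mcm2 itself was at 4.36, 4.33 and 4.71 FPKM in HFD libraries, against 3.63, 3.35 and 3.70 FPKM in control libraries. Rrm1, the large subunit of ribonucleotide reductase, was at 5.11, 4.57 and 5.60 FPKM in HFD and at 3.17, 2.61 and 4.61 FPKM in control. Its partner Rrm2, the small subunit, averaged 7.87 ± 0.67 FPKM in HFD and 9.17 ± 4.34 FPKM in control (SD, n = 3 libraries each), which overlap. Pcna was at 44.7, 45.3 and 48.9 FPKM in HFD and at 27.9, 38.0 and 52.4 FPKM in control, so that control replicate 3 exceeded every HFD library. The licensing and entry genes Cdc6, Cdt1, Ccne1, Gins2 and E2f1 had log2 differences between -0.02 and 0.18, all overlapping. Hells was at 2.60, 2.23 and 2.36 FPKM in HFD and at 2.96, 2.77 and 2.41 FPKM in control (log2 difference -0.13, SE 0.17).

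**Figure D3:**
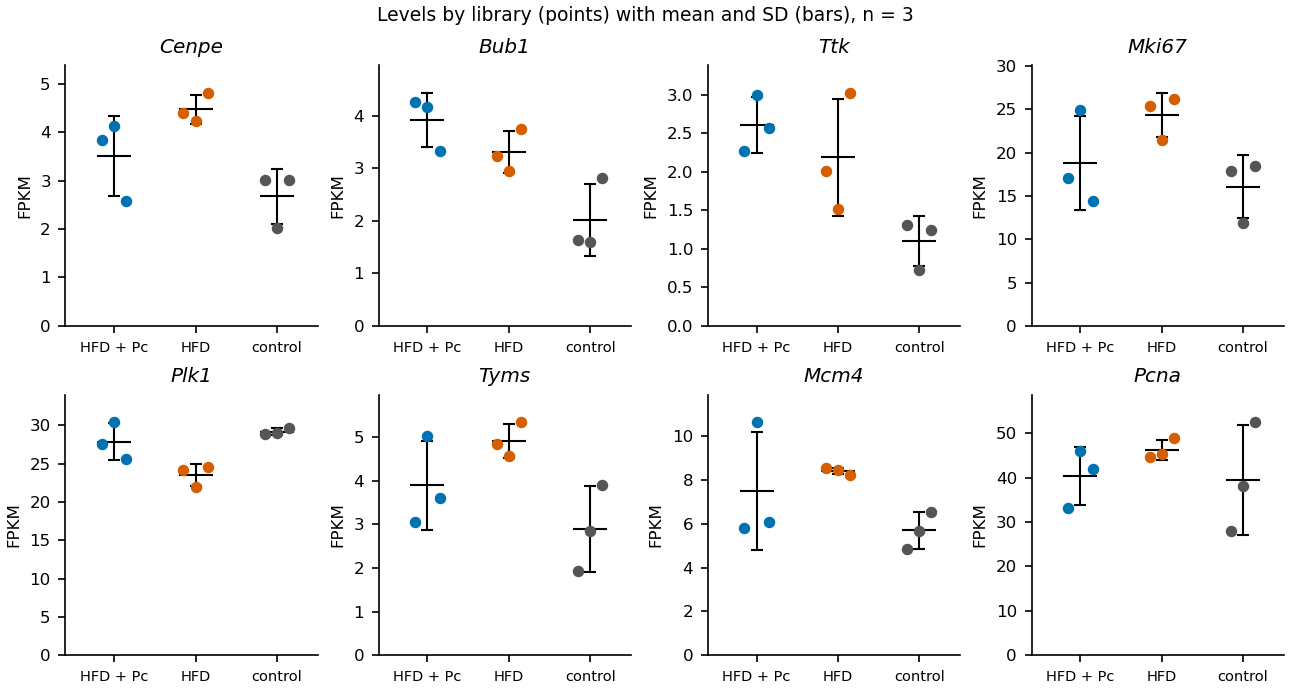
Level in FPKM of 8 members in each library (points) with the mean and SD of 3 libraries (bars) in HFD with P. cinnamivorans (HFD + Pc), HFD and control. Cenpe is apart between HFD and control, Bub1 and Ttk are highest on average with the bacterium, and Plk1 is lowest in HFD (mean 23.5 FPKM, against 29.1 FPKM in control).

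The bacterium group was next set against HFD, on the same diet. None of the 16 S phase and none of the 24 mitotic genes was called, where 12.1% of all genes tested were, 4.54% higher and 7.6% lower (limma). At an unadjusted p below 0.05 only Hells was reached, with the bacterium group higher, against 11.4% of all genes higher and 15.4% lower. The groups did not overlap for Hells and Plk1, higher with the bacterium, and for Cenpe, lower, against 18.7% and 20.3% of all genes. The median log2 difference was -0.19 for S phase genes, with 15 of 16 negative, and -0.11 for mitotic genes, with 16 of 24 negative, against -0.014 over all genes. Replicate 3 of the bacterium group lay above the other 2 libraries of its group throughout the S phase genes. Without that library the medians were -0.38 for both classes. Mcm5 and Mcm6 were then called lower in the bacterium group, where 1544 of all 17907 genes were. Without replicate 1 of the bacterium group the medians were -0.04 for both classes, and without its replicate 4 they were -0.12 for S phase and 0.04 for mitotic genes, so both sizes, and the direction of the mitotic median, rested on single libraries.

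Hells, a chromatin remodelling helicase that helps maintain DNA methylation, was at 3.27, 4.82 and 2.62 FPKM with the bacterium, against 2.60, 2.23 and 2.36 FPKM in HFD libraries. The groups were apart by the margin between replicates 4 and 1, and the log2 difference of 0.40 (SE 0.17) was not called (unadjusted p = 0.0459, limma adjusted p = 0.177). Mcm5 was at 3.33, 8.93 and 4.57 FPKM with the bacterium, so that replicate 3 lay above and the other libraries below the HFD values given above. Its log2 difference was -0.49 (SE 0.28, limma adjusted p = 0.294), and -0.83 without replicate 3 (limma adjusted p = 0.0239). Cdt1 was at 4.76, 7.32 and 5.42 FPKM with the bacterium and at 7.37, 6.996 and 6.98 FPKM in HFD, with the same library within the HFD range. In control Cdt1 was at 6.41, 6.07 and 7.01 FPKM. Tyms was at 3.06, 5.03 and 3.61 FPKM, Mcm4 at 5.82, 10.6 and 6.07 FPKM, Mcm2 at 3.45, 5.68 and 3.44 FPKM, Rrm1 at 2.77, 6.47 and 3.29 FPKM and Pcna at 33.1, 46.0 and 41.9 FPKM with the bacterium. Each of these 5 genes met or exceeded the HFD range only in replicate 3. Among mitotic genes, Cenpe was at 3.83, 4.12 and 2.57 FPKM with the bacterium, below all HFD libraries (log2 difference -0.30, SE 0.17, limma adjusted p = 0.313). Mki67 was at 17.1, 24.9 and 14.5 FPKM with the bacterium, overlapping HFD through replicate 3 (log2 difference -0.38, SE 0.22, limma adjusted p = 0.316). Bub1b at 3.50, 5.19 and 4.39 FPKM, Kif20a at 1.62, 2.52 and 1.14 FPKM and Ccnb2 at 18.9, 26.3 and 14.5 FPKM showed the same arrangement. Cdk1 at 7.12, 9.46 and 6.19 FPKM and Ccnb1 at 5.65, 11.8 and 5.28 FPKM spread around the HFD values.

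HFD with P. cinnamivorans against control gave no call among the 40 genes either, where 1.11% of all genes tested were called, 0.262% higher and 0.843% lower (limma). Bub1, Ttk, Kif23, Foxm1 and Ube2c lay higher with the bacterium: these 5 mitotic genes and no S phase gene were higher at an unadjusted p below 0.05, and their groups did not overlap. That is 20.8% of the mitotic genes, against 8.28% of all genes for the p and 9.86% for the lack of overlap. No member was lower by either measure, against 11.8% and 11.9% of all genes. The median log2 difference was 0.27 for mitotic genes, with 23 of 24 positive, 0.06 for S phase genes, with 9 of 16 positive, and -0.01 over all genes. Leaving out single libraries of these groups gave S phase medians from -0.16, without replicate 3 of the bacterium group, to 0.23, without its replicate 1. The mitotic median ran from 0.14, without replicate 3 of the bacterium group, to 0.48, without control replicate 3.

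Bub1 was at 4.26, 4.16 and 3.33 FPKM with the bacterium, and the difference from control was 0.73 in log2 (SE 0.17, limma adjusted p = 0.0744). Ttk was at 2.27, 2.99 and 2.57 FPKM with the bacterium, more than any control library, with a log2 difference of 0.79 (SE 0.20, limma adjusted p = 0.0791). Kif23, a kinesin of cytokinesis, was at 4.57, 5.58 and 4.89 FPKM with the bacterium, 4.51, 3.87 and 5.60 FPKM in HFD, and it was at 2.35, 2.56 and 4.27 FPKM in control. Foxm1, a transcription factor that raises G2 and mitotic genes, was at 3.97, 4.43 and 3.85 FPKM with the bacterium, 3.43, 2.94 and 4.38 FPKM in HFD, and it was at 2.68, 2.10 and 3.48 FPKM in control. Ube2c, the ubiquitin-conjugating enzyme of the anaphase-promoting complex, was at 28.9, 33.2 and 29.0 FPKM with the bacterium, 26.6, 22.3 and 36.6 FPKM in HFD, and it was at 18.1, 16.6 and 27.0 FPKM in control. In all 3 genes the bacterium group was apart from control, and HFD overlapped control through control replicate 3. The log2 differences of the bacterium group from control were 0.59 for Kif23, 0.45 for Foxm1 and 0.57 for Ube2c, with limma adjusted p between 0.139 and 0.201. Kif11, at 3.99, 7.50 and 3.49 FPKM with the bacterium, overlapped control. This comparison and that of HFD with control share the 3 control libraries, so that both draw on the low values of control replicates 1 and 2.

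**Figure D4:**
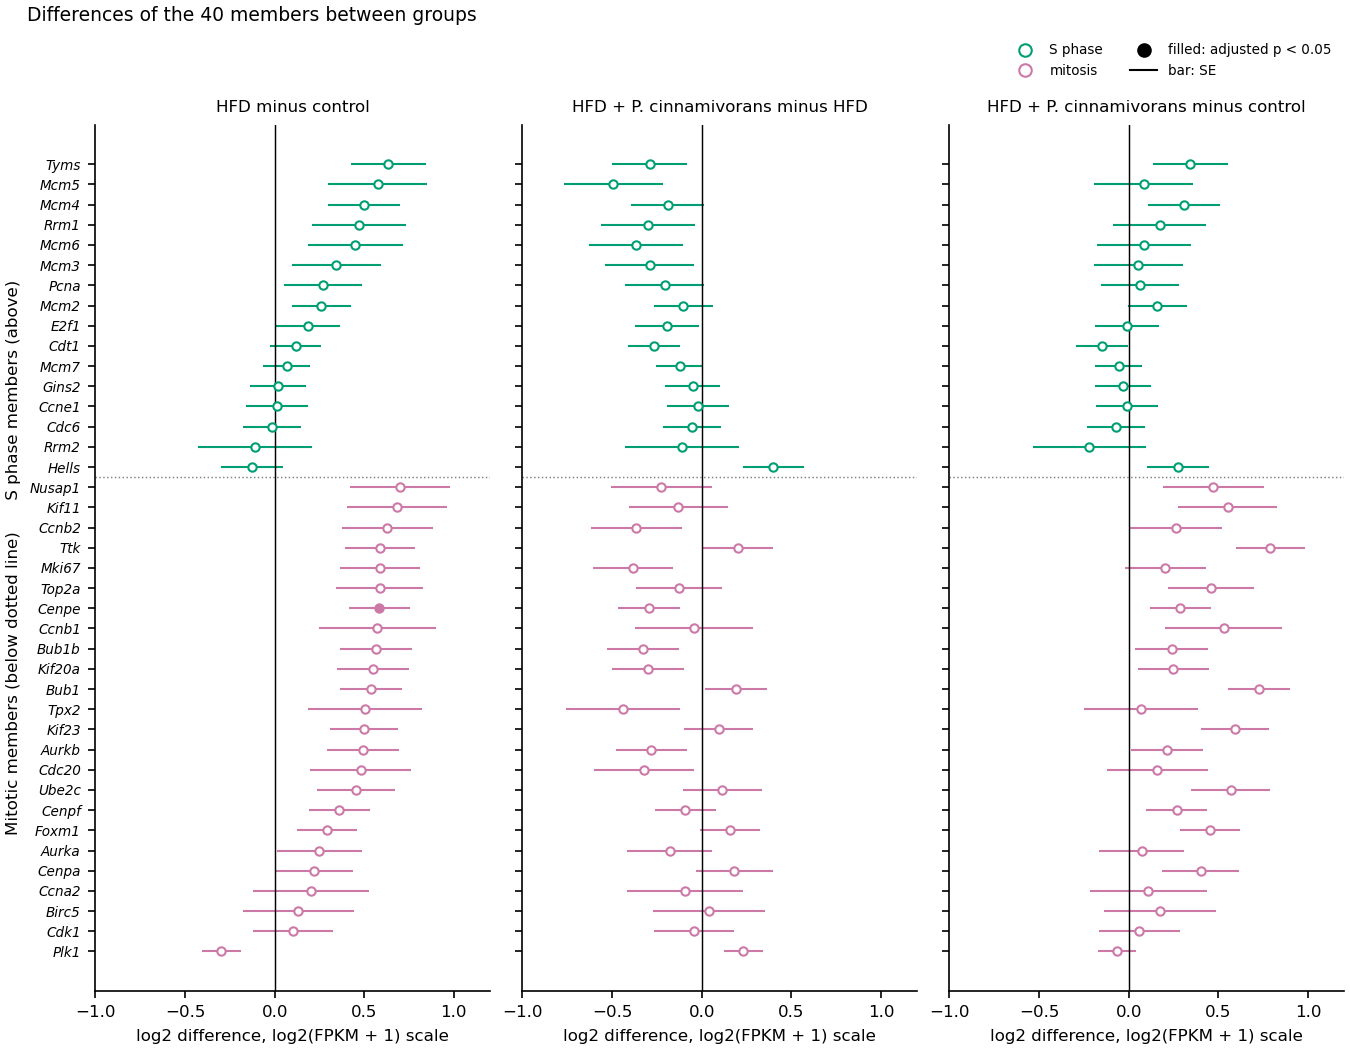
Log2 difference of each member on the log2(FPKM + 1) scale (circles) with its SE (bars) for HFD minus control, HFD with P. cinnamivorans minus HFD, and HFD with P. cinnamivorans minus control, with S phase members above the dotted line and mitotic members below it; a solid circle is an adjusted p below 0.05. Cenpe in the left panel is the only solid circle, and Plk1 is the mitotic member left of 0 in that panel.

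Set against S phase genes, mitotic genes stood higher in both high-fat groups than in control, with overlap. The geometric mean of the 24 mitotic genes divided by that of the 16 S phase genes was 1.71, 1.31 and 1.24 in HFD with P. cinnamivorans, 1.34, 1.17 and 1.48 in HFD, and 1.14, 0.929 and 1.27 in control. Control replicate 2 was the one library in which S phase genes had the higher geometric mean. The ratio averaged 1.42 ± 0.25 with the bacterium, 1.33 ± 0.15 in HFD and 1.11 ± 0.17 in control (SD, n = 3 libraries each). Replicate 1 of the bacterium group combined the lowest S phase mean of the 9 libraries, 3.70 FPKM, with a mitotic mean of 6.31 FPKM. Replicate 3 of that group was highest in both, at 6.74 and 8.79 FPKM. In HFD the S phase means were close together, 5.46, 5.41 and 5.68 FPKM, while the mitotic means were 7.32, 6.34 and 8.40 FPKM. Ratios of single pairs of genes overlapped between HFD and control. Ccnb1 over Mcm2 was 1.43 to 1.9 in HFD and 1.01 to 2.03 in control. Mki67 over Pcna was 0.473 to 0.568 in HFD and 0.313 to 0.641 in control. Top2a over Mcm5 was 1.63 to 1.76 in HFD and 1.56 to 1.97 in control. With the bacterium these 3 ratios were 1.53 to 2.08, 0.345 to 0.542 and 1.9 to 3.12. No test is given for these ratios, because they are summaries over chosen genes.

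**Figure D5:**
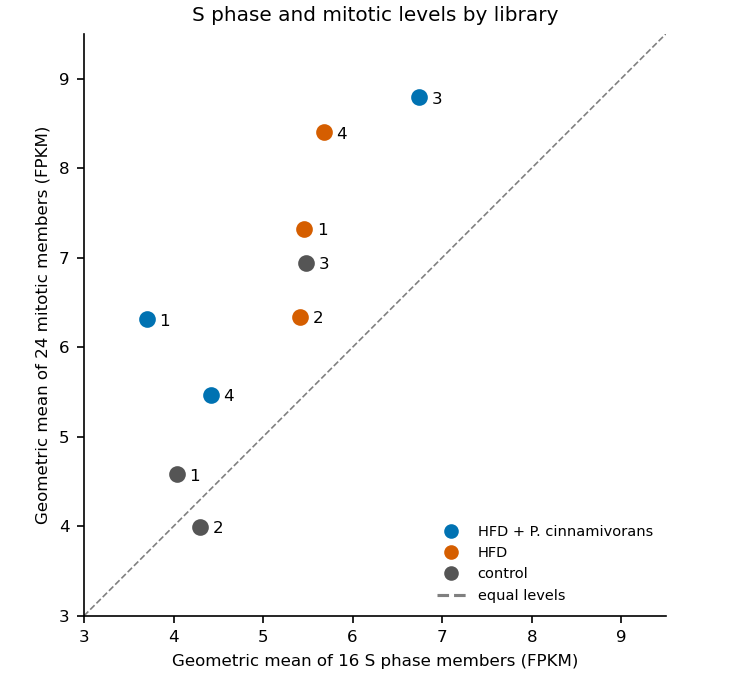
Geometric mean of the 16 S phase members (horizontal axis, FPKM) against that of the 24 mitotic members (vertical axis, FPKM) in each library, coloured by group and labelled by replicate number, with both axes starting at 3 and a dashed line of equal levels. The 3 HFD libraries line up at S phase means of 5.41 to 5.68 FPKM, and control replicate 2 is the only library under the dashed line.

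Other genes of the same pathways were read from lists that hold none of the 40. In HFD against control, 4 of 50 other mitosis genes were called higher and none lower (limma), with a median log2 difference of 0.32. That share was below the 10.6% of all genes called higher. These were Cenpi, Knl1 and Ncapg, which serve kinetochores and condensin, and Hmmr, a spindle protein, which was named after its value was seen. Knl1, the kinetochore scaffold that recruits Bub1, was at 1.94, 1.72 and 2.20 FPKM in HFD libraries, against 0.448, 0.703 and 1.03 FPKM in control libraries (log2 difference 0.79, SE 0.19, limma adjusted p = 0.0193). Cenpi was at 1.45, 1.36 and 1.43 FPKM in HFD and at 0.569, 0.604 and 0.744 FPKM in control, and Ncapg at 2.66, 2.47 and 2.93 FPKM in HFD and at 1.61, 1.19 and 1.82 FPKM in control. All 3 genes were apart between the groups. Of 44 other replication genes tested, Pole2 was called higher and Pola2 lower (4.55% of the list, against 19.7% of all genes), with a median log2 difference of 0.07. Pole2, a subunit of the leading strand polymerase, was at 2.15, 2.32 and 2.66 FPKM in HFD and at 0.898, 0.847 and 1.19 FPKM in control. Pola2, a subunit of the primase complex, was at 1.91, 2.04 and 2.11 FPKM in HFD and at 3.86, 3.07 and 3.66 FPKM in control, a log2 difference of -0.58 (SE 0.12, limma adjusted p = 0.01). Pola2 was called higher with the bacterium than in HFD, a log2 difference of 0.45 (SE 0.12, limma adjusted p = 0.0385). It was the only call in both lists in that comparison, where 12.1% of all genes were called.

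Upstream regulators were read in the same way. Of 22 genes of G1 control tested, Ccnd2 and Myc were called higher and Cdc25a lower in HFD against control (limma), which is 13.6%, against 19.7% of all genes. Myc, a transcription factor of growth, was at 14.6, 15.5 and 14.9 FPKM in HFD libraries, against 10.7, 10.9 and 8.68 FPKM in control libraries (log2 difference 0.53, SE 0.15, limma adjusted p = 0.0366). Ccnd2, a D-type cyclin, was at 14.8, 16.5 and 18.5 FPKM in HFD and at 10.1, 7.81 and 6.98 FPKM in control. Both were called lower with the bacterium than in HFD, with log2 differences of -0.84 for Myc and -0.74 for Ccnd2 (limma adjusted p = 0.00738 and 0.0399). These calls are 9.09% of the list, below the 12.1% of all genes called in that comparison. Cdc25a, a phosphatase that activates cyclin-dependent kinases, was at 4.65, 4.04 and 4.53 FPKM in HFD and at 5.62, 6.94 and 7.17 FPKM in control. Among 15 inhibitors tested, Fbxo5, which restrains the anaphase-promoting complex, was called higher, and Cdkn1c, Cdkn2c and Pkmyt1 lower, in HFD against control. These calls, taken over both directions, are 26.7% of that list, against 19.7% of all genes. Cdkn1c, which codes the inhibitor p57, was at 3.79, 2.52 and 3.00 FPKM in HFD and at 7.84, 9.29 and 8.002 FPKM in control, a log2 difference of -1.20 (SE 0.19, limma adjusted p = 0.00308). It was at 9.61, 6.24 and 9.99 FPKM with the bacterium, and was called higher there than in HFD (limma adjusted p = 0.00359). Cdkn1c was the only inhibitor called in that comparison, 6.67% of the list, against 12.1% of all genes. No gene of these lists was called between HFD with P. cinnamivorans and control.

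Lists of crypt base and B lymphocyte genes were read beside the members. Of 15 colon stem and progenitor genes tested, Ascl2 and Sox9 were called higher and Prom1 lower in HFD against control (limma), a share near the 19.7% of all genes. Ascl2, a factor of crypt base stem cells, was at 8.21, 12.0 and 11.1 FPKM in HFD, against 5.25, 3.78 and 1.75 FPKM in control. Prom1, a membrane protein of progenitors, was at 3.34, 4.24 and 4.40 FPKM in HFD, against 49.3, 71.0 and 99.0 FPKM in control. All 14 B cell markers and 7 of 10 germinal centre markers were called higher in HFD against control, where 10.6% of all genes were. With the bacterium, 14 genes of the first list and 5 of the second were called lower than in HFD, where 7.6% of all genes were. Rgs13, of the second list, was called higher with the bacterium than in HFD, by 0.84 in log2 (SE 0.20, limma adjusted p = 0.0282). The germinal centre list summed to 19.0 to 21.5 FPKM with the bacterium, 25.5 to 33.7 FPKM in HFD and 14.9 to 20.1 FPKM in control. The 3 of its 10 genes not called in HFD against control, Bcl6, Rgs13 and Fas, are also expressed outside B cells and make up most of its sum in the bacterium and control libraries. Of the members, 15 of 16 S phase and 16 of 24 mitotic genes had negative differences between the bacterium group and HFD. The other 8 mitotic differences were positive, Bub1 and Ttk among them. The part of lymphocytes in the members' differences between HFD and control was not tested.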

How the data were processed

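RNA of mouse colon was sequenced in 9 libraries, 3 in each of 3 groups taken from the treatment labels. The authors deposited 1 table of FPKM values, and per the submitters' processing notes HISAT2 2.0.5 and the build GRCm39 were used. Neither the counting tool and its use of strand nor the annotation is stated in the sources used here. Depth per library is unknown, so no counting interval is given. A symbol was found for 52093 of 54491 identifiers, and no pair of libraries held identical values.

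Differences were tested with limma 3.58.1 (R 4.3.3) with a trend of variance on mean, on log2(FPKM + 1), with 1 fit over all 9 libraries. It covered 17907 genes that reached 0.5 FPKM in 3 or more libraries. Benjamini-Hochberg adjustment was made per comparison, and an adjusted p below 0.05 counted as a call. The fit was tested on simulated data. The 40 members and all gene lists were chosen with earlier results of these data known. Values in every library are given for the 4 S phase and 6 mitotic members with the smallest p in each comparison, and for Mki67, Pcna, Mcm2, Ccnb1 and Cdk1. Of each other list, up to 3 genes with the smallest p in HFD against control may be named, and Hmmr, Fbxo5, Bcl6, Rgs13, Fas and Gm44985 were named after their values were seen. Lists with no account in the report gave these calls in HFD against control: plasma cell genes 5 higher and 1 lower of 7, T cell genes 7 higher of 10, macrophage genes 9 higher of 10, epithelial genes 4 lower of 13, fibroblast genes 2 higher of 8, and none of 9 smooth muscle or 7 endothelial genes. Posterior Hox genes gave 5 higher of 8, and Hoxb2 to Hoxb8 gave 6 lower of 7. Alternatives were other pseudocounts, filters, scalings and fits, a replicate block, and each library left out in turn.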

Additional observations from a re-analysis of the deposited data

How the results depend on the processing

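As reported, no S phase and 1 mitotic member were called in HFD against control, and none in the other comparisons. In HFD against control the counts were 2 and 11 after scaling to TPM, 2 and 13 without mitochondrial and immunoglobulin genes, and 2 and 11 with equal totals at the mean total, an alternative chosen after seeing the data. These 3 scalings moved the median log2 difference of all genes to 0.24, 0.21 and 0.20, against -0.001 as reported. Relative to that shift the S phase medians were 0.27, 0.27 and 0.23 and the mitotic medians 0.59, 0.60 and 0.54. Of the calls over all genes 78.2%, 75.6% and 78.8% were higher, against 53.8% as reported. For HFD with P. cinnamivorans against HFD, 25.3% of calls were higher with TPM and 23.9% with equal totals, against 37.4%. In HFD against control no mitotic member was called without a filter or with quantile normalization (0 each), and 2 S phase members were called with only the 2 groups fitted. Leaving out each library in turn gave 0 to 2 S phase and 0 to 6 mitotic calls there, 6 of them without control replicate 3. It gave 0 to 2 S phase calls in HFD with P. cinnamivorans against HFD, both without replicate 3 of the bacterium group. Over all genes it gave 1857 to 4521 calls in HFD against control, 1161 to 3588 in HFD with P. cinnamivorans against HFD and 0 to 1186 in HFD with P. cinnamivorans against control, where 3535, 2174 and 198 were reported. In the last of these, all-gene calls were 15 without a filter, 309 with the stricter filter, 6 with TPM, 46 with quantile normalization, 489 without mitochondrial and immunoglobulin genes, 2 with only the 2 groups fitted and 22 with equal totals. Bub1 was the 1 mitotic member called there without mitochondrial and immunoglobulin genes. Cenpe, the only member called as reported, kept its sign in every run. Members called only in an alternative run had the same sign as reported. Signs of uncalled values were not compared. The cause of the changes between settings was not tested.

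Replicate numbers are shared by fewer than 3 libraries of any pair of groups, and correlations of deviations between same-numbered libraries ran from -0.156 to 0.187, so the numbers are not taken as pairing. With a replicate block, HFD against control gave 2 S phase and 9 mitotic calls and 1985 over all genes, without Cenpe (limma adjusted p = 0.0532), HFD with P. cinnamivorans against HFD gave 1 mitotic call and 1288 over all genes, and HFD with P. cinnamivorans against control gave 0 over all genes. Depth is unknown, so the precision of low genes such as Ttk could not be given.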
